A study of Mus musculus with 8 samples.

Results

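The genes described here are 10 Krüppel-like factors, *Klf2*, *Klf3*, *Klf4*, *Klf5*, *Klf6*, *Klf7*, *Klf9*, *Klf10*, *Klf13* and *Klf15*. They are 10 of the 22454 genes tested and were chosen by their family, with the differences between the groups in these same data known. Their probes were found by the gene name that the array files give. Those names matched 19 of 56605 probes, and 17 of these were among the 33819 probes tested. The RNA was from C57BL/6J male mice aged 12 weeks, 4 given saline intravenously (Co mice) and 4 given sonicated *Porphyromonas gingivalis*, an oral bacterium of periodontitis, in 100 μL of saline (Pg mice). The dose was 100000000 CFU by the methods and is printed as 108 CFU in the labels. Interscapular fat labelled brown adipose tissue (BAT) was taken after 18 h, and each mouse had 1 one-color array. The methods name no transgene and no engineered deletion for either group.

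Krüppel-like factors are transcription factors with zinc fingers at the carboxyl end that bind CACCC elements and GC-rich boxes. Their unlike amino-terminal parts recruit activators or repressors. In vessels, KLF2 and KLF4 are induced by blood flow through the kinases MEK5 and ERK5 and the factor MEF2, and they keep endothelium in a state that opposes inflammation and clotting. In fat cell precursors KLF5 promotes differentiation and KLF3 opposes it, whereas KLF9 and KLF15 are induced by glucocorticoids. KLF10 is an early target of TGF-β.

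The sequences below are the 30 middle bases (bases 16 to 45 of 60) of the 6 probes on which the main values rest, in lower case from 5′ to 3′ as printed on the array. They are shown because each value is the signal of 1 such probe of 60 bases, and not of the whole transcript.
Klf2: gaccgattgtatttctataagggagacgat
Klf4: ggtcaagttcccagcaagtcagcttgtgaa
Klf5 probe 1: aaaagctcacctgaggactcatacgggcga
Klf10 probe 1: tctgacatgcaaacttgaacccttgaaaga
Klf13 probe 2: tacgggaaatcttcgcacctcaaggcgcac
Klf15: tagcttgttttgacaggtctatttcacatc

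By the mm9 coordinates in the array files, the *Klf2* probe lies at chr8:74845137-74845196 on the plus strand and the *Klf4* probe at chr4:55540833-55540892 on the minus strand. The *Klf5* probe 1 spans chr14:99702656-99712388, so its 60 bases join exons on both sides of a gap. The *Klf10* probe 1 lies at chr15:38224255-38224314, the *Klf13* probe 2 at chr7:71082854-71082913 and the *Klf15* probe at chr6:90424982-90425040. The files do not say whether a probe lies in coding sequence or in a UTR.

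Proximal promoters, the 250 bases before the gene start in RefSeq (GRCm38.p6), were at hand for 8 of the 10 genes, all except *Klf5* and *Klf10*. They are printed for *Klf2* and *Klf4*, the genes with the largest rise, and for *Klf15*. Capitals mark a MEF2-type motif (CTANNNNTAG), an E-box (CACGTG) or the KLF core (CACCC, or GGGTG on the other strand).
Klf2 promoter, chr8:72318812-72319061, plus strand: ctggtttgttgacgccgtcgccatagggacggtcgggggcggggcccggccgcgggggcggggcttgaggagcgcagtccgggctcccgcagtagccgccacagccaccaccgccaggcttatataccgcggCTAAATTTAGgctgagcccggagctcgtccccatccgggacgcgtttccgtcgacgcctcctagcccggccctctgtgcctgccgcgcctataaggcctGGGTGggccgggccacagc
Klf4 promoter, chr4:55532476-55532725, minus strand: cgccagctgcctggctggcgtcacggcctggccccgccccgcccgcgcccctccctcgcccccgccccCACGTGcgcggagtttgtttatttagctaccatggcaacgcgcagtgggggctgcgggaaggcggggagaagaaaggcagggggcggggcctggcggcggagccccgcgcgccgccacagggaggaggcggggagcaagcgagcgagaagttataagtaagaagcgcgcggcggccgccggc
Klf15 promoter, chr6:90462326-90462575, plus strand: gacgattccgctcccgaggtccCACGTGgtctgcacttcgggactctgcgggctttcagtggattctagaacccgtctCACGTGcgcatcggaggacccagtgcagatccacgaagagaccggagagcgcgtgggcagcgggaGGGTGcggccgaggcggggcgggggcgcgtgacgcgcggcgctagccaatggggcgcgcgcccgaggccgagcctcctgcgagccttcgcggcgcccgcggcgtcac

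The *Klf2* promoter held the MEF2-type motif 118 bases before the start, a motif found in 3.2% of the 32851 promoters in the table on either strand, and none of the other 7 members with a promoter held it. The E-box, bound by clock and MYC-family factors, stood 182 bases before the start of *Klf4*, 43 before that of *Klf6*, and 228 and 172 before that of *Klf15*. It is found in 6.02% of all promoters. The EGR motif GCGGGGGCG occurred in *Klf2*, *Klf3*, *Klf4* and *Klf15*, in each overlapping a GC box (GGGCGG), and in 2.57% of all promoters. The KLF core occurred in *Klf2*, *Klf3*, *Klf7*, *Klf9*, *Klf13* and *Klf15*, and in 52.0% of all promoters. No D-box (TTANGTAA), glucocorticoid receptor half-site (TGTTCT) or cAMP response element (TGACGTCA) was found in these 8 windows. The members' promoters were GC-rich, with a median GC content of 71.4% against 52.4% over all promoters. These matches describe letters and were not tested as binding sites.

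Signal is given as log2 of the background-subtracted, quantile-normalized intensity, and a difference is Pg minus Co on that scale. Probes differ in how well they bind, so levels are compared between arrays and not between probes. A probe was said to rise or fall when limma's test, adjusted by Benjamini-Hochberg over all 33819 probes, gave a q under 0.1. A differentially expressed gene (DEG) also had a fold change above 1.5. Since the 10 genes were picked with results of this contrast known, their q values are a description and not independent evidence.

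All 10 genes gave signal above background. Of the 19 probes, 16 were well above background on all 8 arrays, and 1 of the others, *Klf13* probe 1, was tested with 7 such arrays. The 2 left untested were *Klf5* probe 2 and *Klf10* probe 2. No spot of any member was saturated or marked as an outlier. Over the 17 tested probes the median difference was −0.02, against −0.04 over all probes tested. Of these, 8 were higher and 9 lower in the Pg mice, beside 42.3% of all probes that were higher.

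Several facts of the arrays bear on every value. *Ucp1*, which defines brown fat, and *Elovl3*, both named here for the tissue check and not by the naming rule, were above background on no array, although 6 of 8 brown adipocyte markers and all 8 skeletal muscle markers were above it on all 8 arrays. The muscle markers were bright, with a summed signal of 1694105 to 1863071 in the Co mice and 1664832 to 1862402 in the Pg mice. For the 6 brown adipocyte markers it was 468388 to 519960 and 513861 to 559973. No member was read against the muscle markers, and the part of muscle in the values was not tested. In the marker lists of brown adipocytes, skeletal muscle and T and B cells no gene had a q under 0.1, and among those with the smallest p were *Dio2* (0.59, q 0.129) and *Cox7a1* (0.16, q 0.141), *Ckm* (−0.15, q 0.186) and *Myh2* (0.06, q 0.646), and *Cd3e* (0.08, q 0.651). The 4 Co arrays lay in 1 row of the slide and the 4 Pg arrays in the other, so row and group cannot be told apart. The Co arrays had 34760 to 35830 probes above background and the Pg arrays 31132 to 34063, with no overlap, and the part of this gap in the results was not tested. In bulk tissue, fewer cells of a type and less RNA per cell cannot be told apart.

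**Figure D1:**
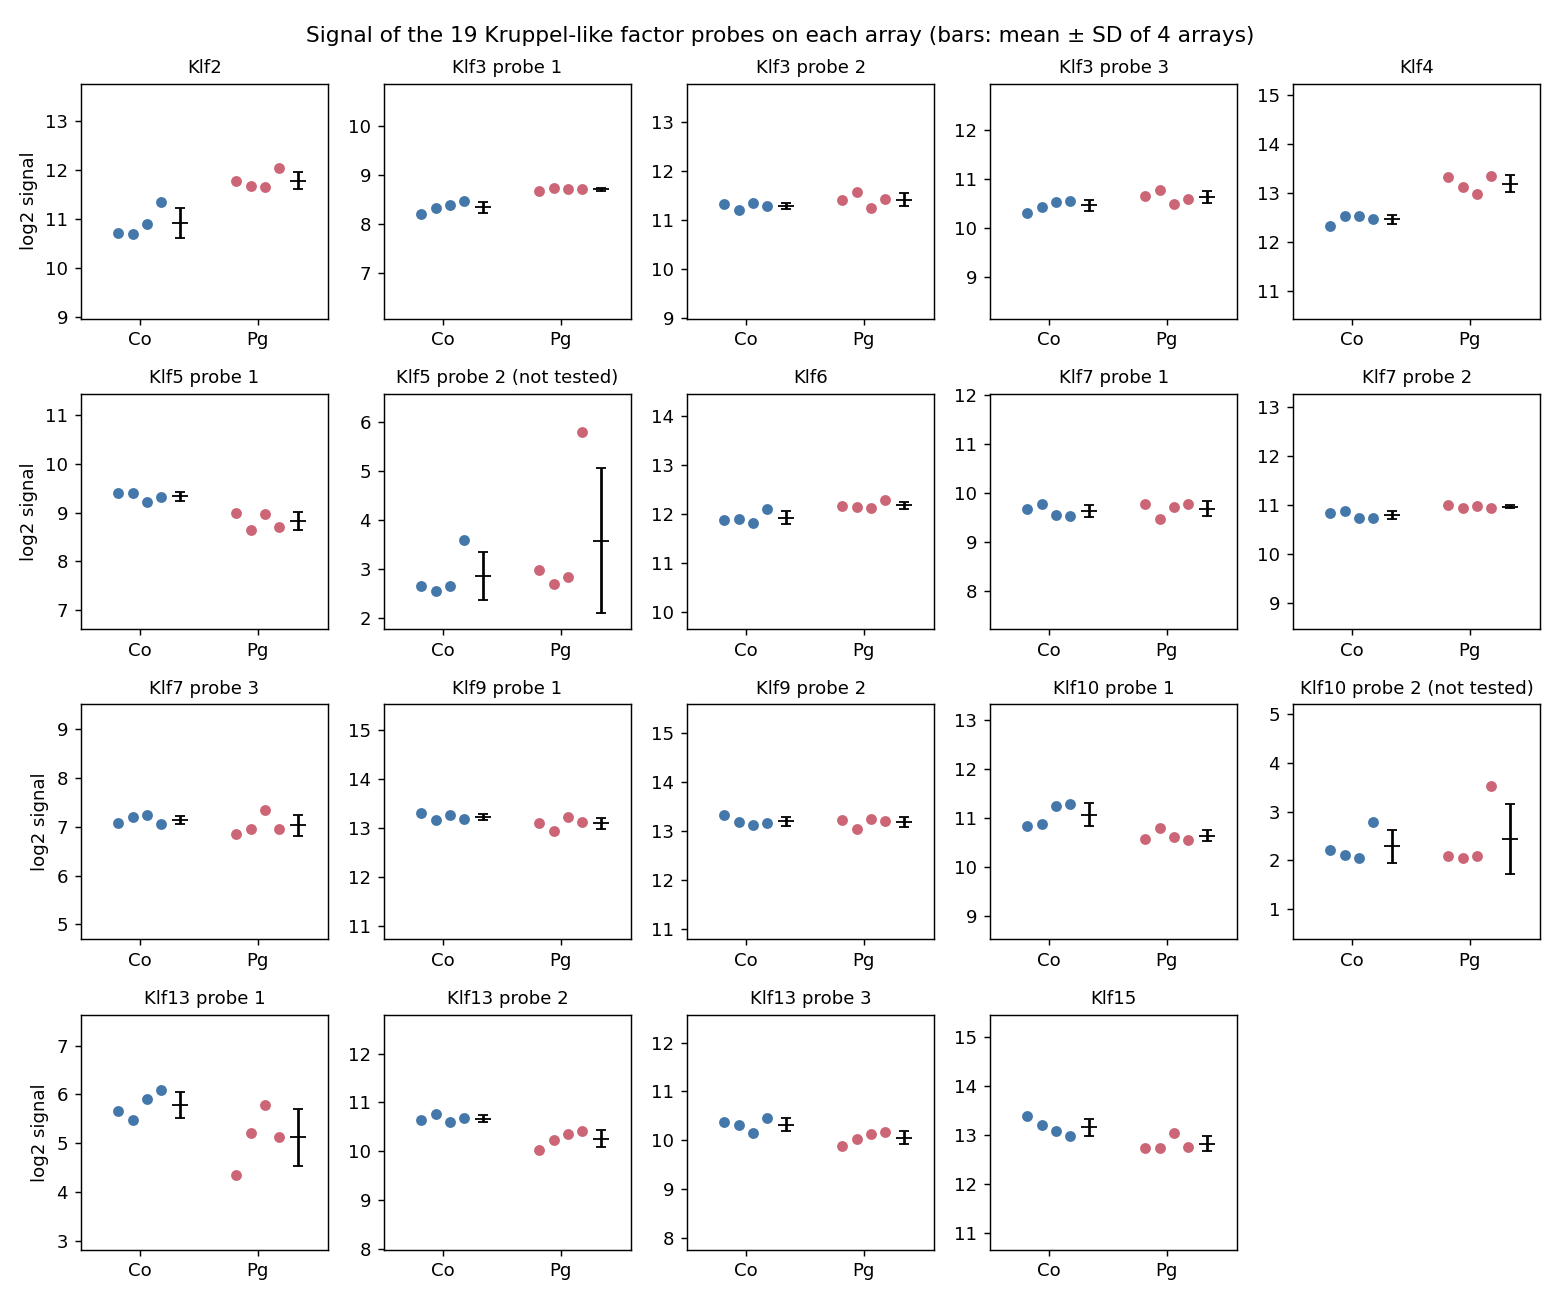
Log2 signal (y axis, with the same span in every panel) of each of the 19 probes on the 4 Co and 4 Pg arrays, 1 point per mouse in the order of the replicate numbers; bars give the mean and SD of 4 arrays. The Pg arrays lie above all Co arrays for *Klf2* and *Klf4* and below them for *Klf5* probe 1, *Klf10* probe 1 and *Klf13* probe 2.

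The endothelial pair, *Klf2* and *Klf4*, rose in the Pg mice, by 1.83-fold and 1.66-fold. They were the only DEGs among the 17 tested probes, beside 1.61% of all probes (0.313% higher and 1.3% lower). With the arrays scaled to the 75th percentile in place of quantile normalization, the same pair passed, while the split over all probes moved from 106 higher and 440 lower to 137 higher and 146 lower.

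*Klf2*, the flow-induced factor, read 10.71, 10.70, 10.89 and 11.36 in the 4 Co mice and 11.78, 11.67, 11.66 and 12.04 in the 4 Pg mice. Every Pg mouse was above every Co mouse, and Co mouse 4 was the closest to them. The means were 10.92 ± 0.31 and 11.79 ± 0.18 (SD, n = 4 each). The difference was 0.87 (SE 0.16, 95% interval 0.50 to 1.24), with a limma q of 0.0528.

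*Klf4*, which shares the ERK5 route with *Klf2* and is also used by macrophages and epithelium, read 12.32, 12.53, 12.53 and 12.46 in the Co mice and 13.32, 13.13, 12.97 and 13.35 in the Pg mice. The groups did not overlap, and the Co mice lay close together. The means were 12.46 ± 0.10 and 13.19 ± 0.18 (SD, n = 4 each). The difference was 0.73 (SE 0.10, 95% interval 0.50 to 0.96), with a limma q of 0.0398.

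Both calls rested on some arrays more than on others. *Klf2* was no longer a DEG without Co mouse 2 (q 0.120), Co mouse 3 (q 0.119) or Pg mouse 1 (q 0.103), and *Klf4* was not without Co mouse 3 (q 0.106). Without normalization between arrays neither was (q 0.138 and 0.105), nor was either with the replicate number as a block. The differences themselves stayed between 0.79 and 1.02 for *Klf2* and between 0.68 and 0.81 for *Klf4* in all 17 alternative settings.

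*Klf3*, a repressor that recruits CtBP, has 3 probes, all higher in the Pg mice. *Klf3* probe 1, whose 60 bases span chr5:65213568-65214148 and so cross a splice junction, read 8.20, 8.33, 8.40 and 8.47 in the Co mice and 8.68, 8.74, 8.72 and 8.71 in the Pg mice. The Pg mice were tightly grouped above all Co mice. This probe rose by 0.36 (SE 0.07, 1.29-fold, limma q 0.0528), below the fold limit for a DEG. Its q was above 0.1 without Co mouse 2 (0.123), Co mouse 3 (0.113), Pg mouse 1 (0.101) or Pg mouse 2 (0.103), without normalization (0.151), with the replicate block and in the authors' values (0.101), where the difference was 0.20. The probes downstream in the same gene gave smaller differences that did not pass, 0.12 (SE 0.08, q 0.380) for probe 2 and 0.17 (SE 0.09, q 0.285) for probe 3, and their groups overlapped. The 3 probes had the same direction in all settings that measured them.

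*Klf6*, an early-response factor of injury and of myeloid cells, read 11.88, 11.90, 11.83 and 12.11 in the Co mice and 12.16, 12.15, 12.12 and 12.28 in the Pg mice. The groups stood next to each other without overlap, with Co mouse 4 just below the lowest Pg mouse. The difference of 0.25 (SE 0.08, 1.19-fold) did not pass, with a limma q of 0.120, the nearest outside the threshold among the members. Without Co mouse 4 it was 0.31 with a q of 0.0990.

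*Klf7*, which opposes fat cell differentiation in culture, gave no common direction over its 3 probes. Probe 2 read 10.73 to 10.89 in the Co mice and 10.94 to 11.01 in the Pg mice, a difference of 0.17 (SE 0.06, q 0.144) without overlap. Probe 1 differed by 0.05 (95% interval −0.16 to 0.26, q 0.781) and probe 3 by −0.11 (95% interval −0.37 to 0.15, q 0.591). For these both groups overlapped, and the sign of probe 1 turned with the median signal and in the authors' table, and that of probe 3 without normalization and in the authors' table.

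**Figure D2:**
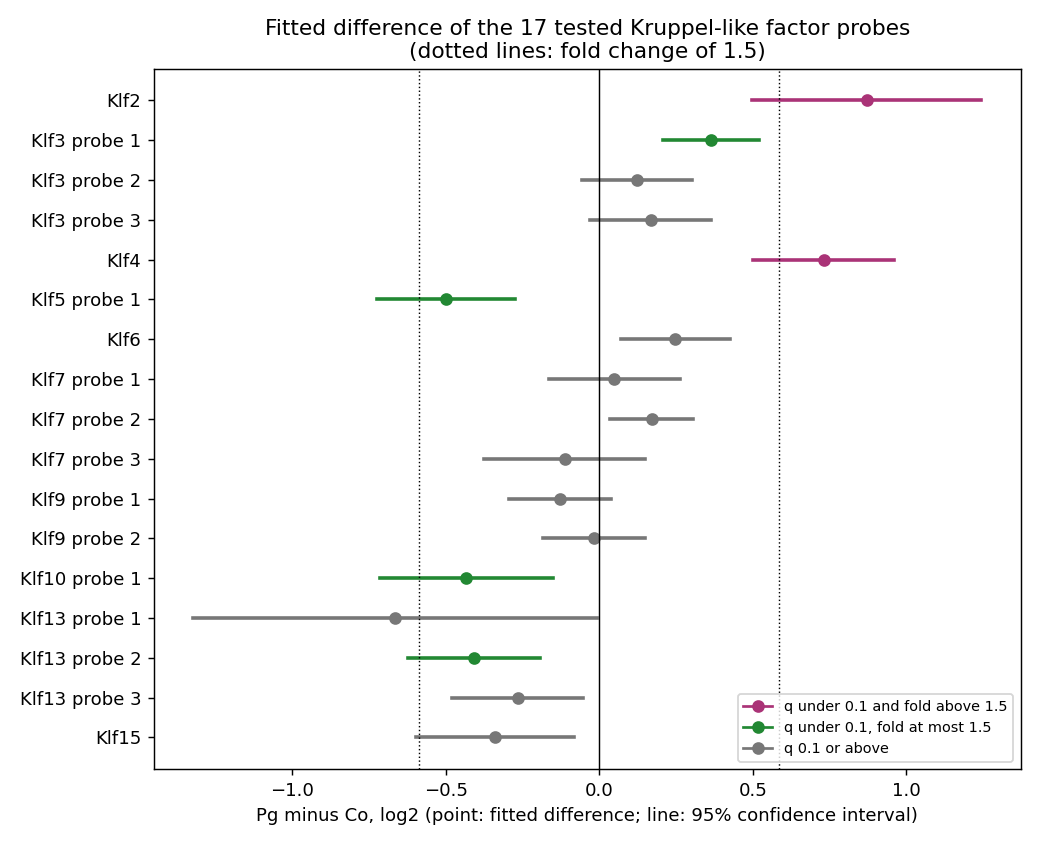
Fitted difference (x axis, Pg minus Co, log2) of the 17 tested probes with its 95% confidence interval; dotted lines mark a fold change of 1.5 and color marks whether q was under 0.1. The points of *Klf2* and *Klf4* lie past the right-hand line, though their intervals reach inside it. *Klf5* probe 1, *Klf10* probe 1 and *Klf13* probe 2 lie below 0 between the lines. The point of *Klf13* probe 1 (−0.66), whose q was not under 0.1, lies past the left-hand line.

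On the other side, *Klf5*, *Klf10* and *Klf13* each had a probe that fell, by 1.41-fold, 1.35-fold and 1.33-fold. In all, 6 of the 17 tested probes had a q under 0.1, 3 higher (*Klf2*, *Klf4* and *Klf3* probe 1) and 3 lower, beside 7.82% of all probes (1.82% higher and 6% lower). The groups did not overlap for 8 probes, 5 higher and 3 lower, beside 15.8% of all probes (4.83% higher and 11% lower).

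*Klf5*, which acts early in fat cell differentiation and in smooth muscle, read 9.40, 9.40, 9.21 and 9.32 in the Co mice with probe 1 and 8.99, 8.65, 8.97 and 8.71 in the Pg mice. All Pg mice were below all Co mice. The means were 9.33 ± 0.09 and 8.83 ± 0.18 (SD, n = 4 each), a difference of −0.50 (SE 0.10, 95% interval −0.72 to −0.27, limma q 0.0571). The difference stayed between −0.55 and −0.44, and its q was under 0.1 in 9 of 17 settings. It was not without Co mouse 1 (q 0.102), 2 (q 0.129), 3 (q 0.113) or 4 (q 0.104), without Pg mouse 2 (q 0.102) or 4 (q 0.106), without normalization (q 0.169) or with the replicate block.

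The other *Klf5* probe, at chr14:99704137-99704196, lies inside the stretch that probe 1 skips. It was above background on 1 array, that of Pg mouse 4, and gives no second reading of the spliced transcript.

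*Klf10*, the TGF-β-inducible factor, read 10.85, 10.90, 11.26 and 11.29 in the Co mice with probe 1 and 10.57, 10.80, 10.62 and 10.57 in the Pg mice. The highest Pg mouse was just below the lowest Co mouse. The difference was −0.43 (SE 0.12, 95% interval −0.71 to −0.15). Its limma q of 0.0992 was the nearest inside the threshold among the members, and q was under 0.1 in 3 of 17 settings. Leaving out any 1 array raised it to between 0.103 and 0.197. *Klf10* probe 2, at chr15:38221219-38221278, was well above background on no array.

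*Klf13*, a repressor that works with SIN3A and also activates a chemokine gene in T cells, was lower with each of its 3 probes. *Klf13* probe 2 read 10.65, 10.76, 10.59 and 10.68 in the Co mice and 10.03, 10.23, 10.36 and 10.42 in the Pg mice. All Pg mice were lower, and they were more spread than the Co mice. This probe fell by 0.41 (SE 0.09, limma q 0.0683) on the log2 scale, and its q was under 0.1 in 8 of 17 settings. It was not without Co mouse 1 (q 0.118), 2 (q 0.149), 3 (q 0.128) or 4 (q 0.123), without Pg mouse 1 (q 0.109) or 2 (q 0.134), without a filter on dim probes (q 0.107), without normalization (q 0.147) or with the replicate block.

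The other *Klf13* probes had overlapping groups and did not pass. The dim probe 1, which spans chr7:71036675-71069606 and so crosses an intron, differed by −0.66 (SE 0.28, q 0.215) and was above background on 4 Co and 3 Pg arrays. Its difference was smaller with normexp (−0.24), with the median signal (−0.25), in the authors' values (−0.36) and without Pg mouse 1 (−0.41). Probe 3, at chr7:71032482-71032541, differed by −0.26 (SE 0.09, q 0.148). The files list it on the strand opposite to the other *Klf13* probes, so which strand it reads is uncertain.

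*Klf15*, which drives amino acid breakdown and the glucocorticoid response of fat and muscle, read 13.38, 13.21, 13.07 and 12.97 in the Co mice and 12.73, 12.74, 13.05 and 12.76 in the Pg mice. Pg mice 1, 2 and 4 were below all Co mice, and Pg mouse 3 lay among them. The difference of −0.34 (SE 0.11, 95% interval −0.60 to −0.08, 1.26-fold lower) did not pass, with a limma q of 0.134. Its q was under 0.1 in 2 of 17 settings, without Pg mouse 3 (−0.42, q 0.0902) and, with all 8 arrays, on the median signal without background subtraction (−0.37, q 0.0905). Pg mouse 3 was also the Pg mouse with the lowest signal of the neutrophil gene *S100a8*, 5.18 against 6.76 to 8.59 in the other Pg mice, and the part of this in the result was not tested.

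*Klf9*, induced by glucocorticoids and thyroid hormone, differed little with either of its probes. *Klf9* probe 1 read 13.15 to 13.30 in the Co mice and 12.94 to 13.21 in the Pg mice, and differed by −0.13 (95% interval −0.29 to 0.04, q 0.335). *Klf9* probe 2 differed by −0.02 (95% interval −0.18 to 0.15, q 0.913). Both intervals lie well inside a 1.5-fold change in either direction. The sign of probe 2 turned in 3 of 17 settings.

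**Figure D3:**
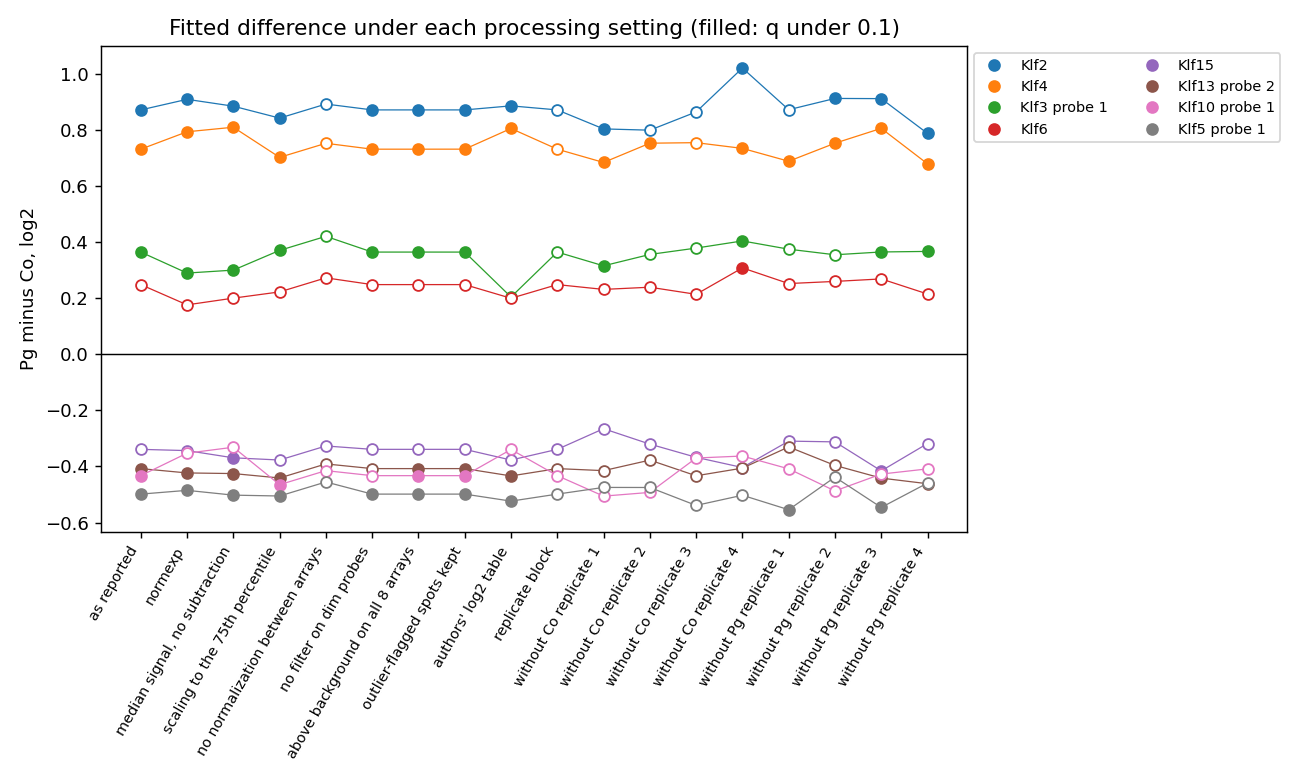
Fitted difference (y axis, Pg minus Co, log2) of 8 probes as reported and under each of 17 alternative settings (x axis); filled points have a q under 0.1 and open points do not. All 8 keep their side of 0 throughout, and without normalization, with the replicate number as a block or without Co mouse 3 every point is open.

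The difference between 2 probes on the same array is free of any scaling of the whole array. These pairs were chosen after seeing the data, each of a probe that rose and a probe that fell, so that the groups lie apart is fixed by the choice, and the level of a difference depends on the probes. The *Klf4* minus *Klf5* probe 1 difference was 2.92 to 3.32 in the Co mice and 4.00 to 4.64 in the Pg mice, and it was higher by 1.23 in the Pg mice with normalization and by 1.21 without. The *Klf4* minus *Klf10* probe 1 difference was 1.17 to 1.63 in the Co mice and 2.32 to 2.78 in the Pg mice. The *Klf2* minus *Klf13* probe 2 difference was −0.05 to 0.68 in the Co mice and 1.29 to 1.76 in the Pg mice. These values are given as a description.

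*Klf2* and *Klf4* are genes of endothelium and of myeloid cells, so the markers of both were read on the same arrays. The summed signal of 10 endothelial markers was 19210 to 23927 in the Co mice and 22675 to 24745 in the Pg mice. The groups overlapped through Co mouse 4, which had the highest sum and the highest *Klf2* of the Co mice. Of the 10 markers, 7 were higher and 3 lower, and *Kdr*, the main VEGF receptor of endothelium, rose by 0.57 (SE 0.11, limma q 0.0573), whereas *Pecam1*, a junction protein, differed by −0.20 (q 0.151). All 10 were above background on all 8 arrays.

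Relative to the mean log2 signal of these 10 markers on the same array, *Klf2* was 0.24, 0.19, 0.33 and 0.59 in the Co mice and 1.18, 0.99, 0.98 and 1.32 in the Pg mice. *Klf4* was 1.69 to 2.02 in the Co mice and 2.30 to 2.72 in the Pg mice. The groups stayed apart for both, with differences of 0.78 and 0.64. They stayed apart also for *Klf3* probe 1 (0.28), *Klf6* (0.16), *Klf5* probe 1 (−0.59), *Klf10* probe 1 (−0.52) and *Klf13* probe 2 (−0.50). For *Klf15* (−0.43) they overlapped.

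**Figure D4:**
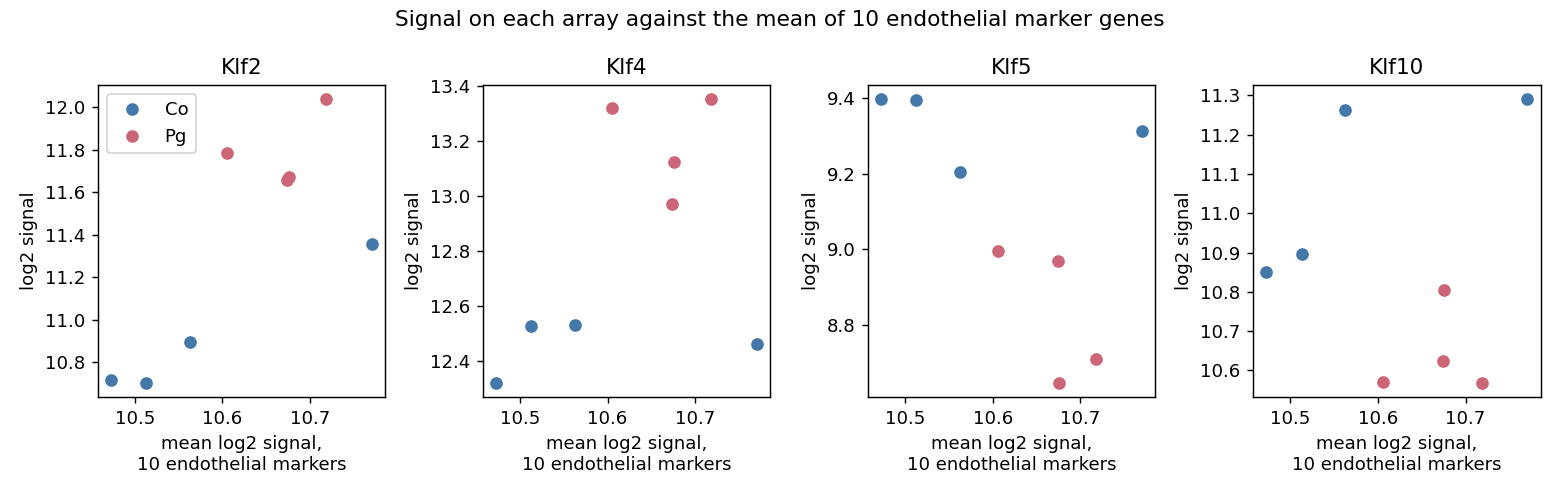
Log2 signal of *Klf2*, *Klf4*, *Klf5* probe 1 and *Klf10* probe 1 (y axes) against the mean log2 signal of 10 endothelial markers on the same array (x axis), 1 point per mouse. Co mouse 4 has the highest marker mean, 10.77, and lies below all Pg mice for *Klf2* and *Klf4* and above them for the others.

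The means of all 8 macrophage and neutrophil markers were higher in the Pg mice, but none had a q under 0.1. Their summed signal was 43875 to 53073 in the Co mice and 52690 to 59580 in the Pg mice. The neutrophil gene *S100a8* was 2.16 higher (SE 0.71, q 0.132), with values of 4.56 to 5.33 in the Co mice and 5.18 to 8.59 in the Pg mice. The receptor gene *Csf3r* was 0.24 higher (SE 0.09, q 0.181). Relative to the mean log2 signal of these 8 markers the groups overlapped for *Klf2* (difference 0.13), *Klf4* (−0.01), *Klf3* probe 1 (−0.37), *Klf6* (−0.49), *Klf5* probe 1 (−1.24), *Klf13* probe 2 (−1.15) and *Klf15* (−1.08). On this scale *Klf3* probe 1 and *Klf6* had the opposite sign to their own signal, and *Klf4* hardly differed. The scale leans on *S100a8* and *S100a9*, which had the largest differences of the 8 markers, whereas the median of the 8 was 0.36. Only *Klf10* probe 1 (−1.17) of these 8 probes had groups that stayed apart. Pg mouse 3 had a mean log2 signal of these markers of 8.90, below the 8.93 to 9.33 of the Co mice, but a summed signal of 57365, above that of every Co mouse. It also had the lowest *Klf2*, 11.66, and the lowest *Klf4*, 12.97, of the Pg mice. Pg mouse 2, with the highest marker mean, 10.44, read nearly the same *Klf2*, 11.67, and a *Klf4* of 13.13. Pg mouse 1, with a marker mean of 10.20, read 11.78 and 13.32. The highest *Klf2* and *Klf4*, 12.04 and 13.35, were those of Pg mouse 4, with a marker mean of 9.72. The part of myeloid cells in these rises was not tested.

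The other genes of the family and its circuits were read from fixed lists, with the probe of the highest mean standing for each gene. None of 11 tested KLF and SP genes and none of 65 tested genes of partner and target lists was a DEG by limma, beside 1.19% of the 22454 genes tested. At an unadjusted p under 0.05 there were 3 of the 11 and 19 of the 65, beside 20.3% of all genes tested. A q under 0.1 was found for 1 of the 11 and 5 of the 65, beside 6.25% of all genes tested. The counts per list follow.

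Among the other Krüppel-like factors 4 of 7 were tested. *Klf12*, a repressor that binds CtBP as *Klf3* does, fell by 0.48 (SE 0.08, limma q 0.0475), from 9.21 to 9.49 in the Co mice to 8.75 to 8.97 in the Pg mice, and 1 of its 4 tested probes was higher. *Klf11*, a TGF-β-inducible relative of *Klf10*, differed by −0.26 (q 0.181). Of the SP factors, which bind the same GC boxes, 7 of 9 were tested, 6 were lower and none passed. The smallest p values belonged to *Sp4* (−0.18, q 0.196) and *Sp6* (−0.41, q 0.433).

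Upstream of *Klf2* and *Klf4*, none of the 11 genes of the ERK5 and MEF2 route and of the cerebral cavernous malformation complex that restrains it had a q under 0.1. *Mapk7*, which encodes ERK5, was 0.20 higher (SE 0.06, q 0.126), and *Heg1*, the membrane receptor of the complex, was 0.55 higher (SE 0.20, q 0.158) with the probe used. That probe read 10.75 in Pg mouse 3 and 9.92 to 9.95 in the other Pg mice, and 1 of the 3 tested *Heg1* probes was higher. The median of the list was 0.05.

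Downstream, 1 of 6 genes that KLF2 and KLF4 induce in endothelium rose. It was *Thbd*, thrombomodulin, which turns thrombin toward anticoagulation, with 10.61 to 10.79 in the Co mice and 10.92 to 11.09 in the Pg mice, a rise of 0.37 (SE 0.07, limma q 0.0517). *Nos3*, the endothelial nitric oxide synthase, was 0.31 higher (SE 0.09, q 0.108). The other 4 of the list were lower without passing, and the median was −0.04. Of the genes they repress, 4 of 5 were tested and none passed. The adhesion molecule *Vcam1* was 0.31 higher (SE 0.12, q 0.181) and endothelin, *Edn1*, differed by −0.16 (SE 0.09, q 0.356).

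Among 10 cofactors and ubiquitin ligases of the family, 1 rose and 1 fell. *Ep300*, the p300 acetyltransferase and coactivator, fell by 0.53 (SE 0.09, limma q 0.0439) and was lower with 3 of 3 probes. *Fbxw7*, a ligase that marks KLF2 and KLF5 for degradation, rose by 0.30 (SE 0.08, limma q 0.0796).

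The lists that bear on *Klf9*, *Klf15*, *Klf5* and *Klf10* showed few calls. Of 6 KLF15 targets of amino acid and glucose metabolism none passed, with the aminotransferase genes *Bcat2* at −0.28 (q 0.217) and *Gpt* at −0.20 (q 0.219) and a median of −0.20. Of 10 glucocorticoid-induced genes 1 fell, *Tsc22d3*, which encodes the anti-inflammatory GILZ, by 0.53 (SE 0.14, limma q 0.0866), and the receptor chaperone *Fkbp5* differed by −0.61 (SE 0.22, q 0.161). None of 9 adipogenesis factors passed, with *Cebpb* at −0.30 (q 0.154) and *Pparg* at 0.23 (q 0.158). Of 9 TGF-β response genes 1 rose, the corepressor *Tgif1*, by 0.48 (SE 0.13, limma q 0.0916), and the receptor *Tgfbr1* differed by −0.33 (q 0.103), with 1 of its 3 tested probes higher.

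**Figure D5:**
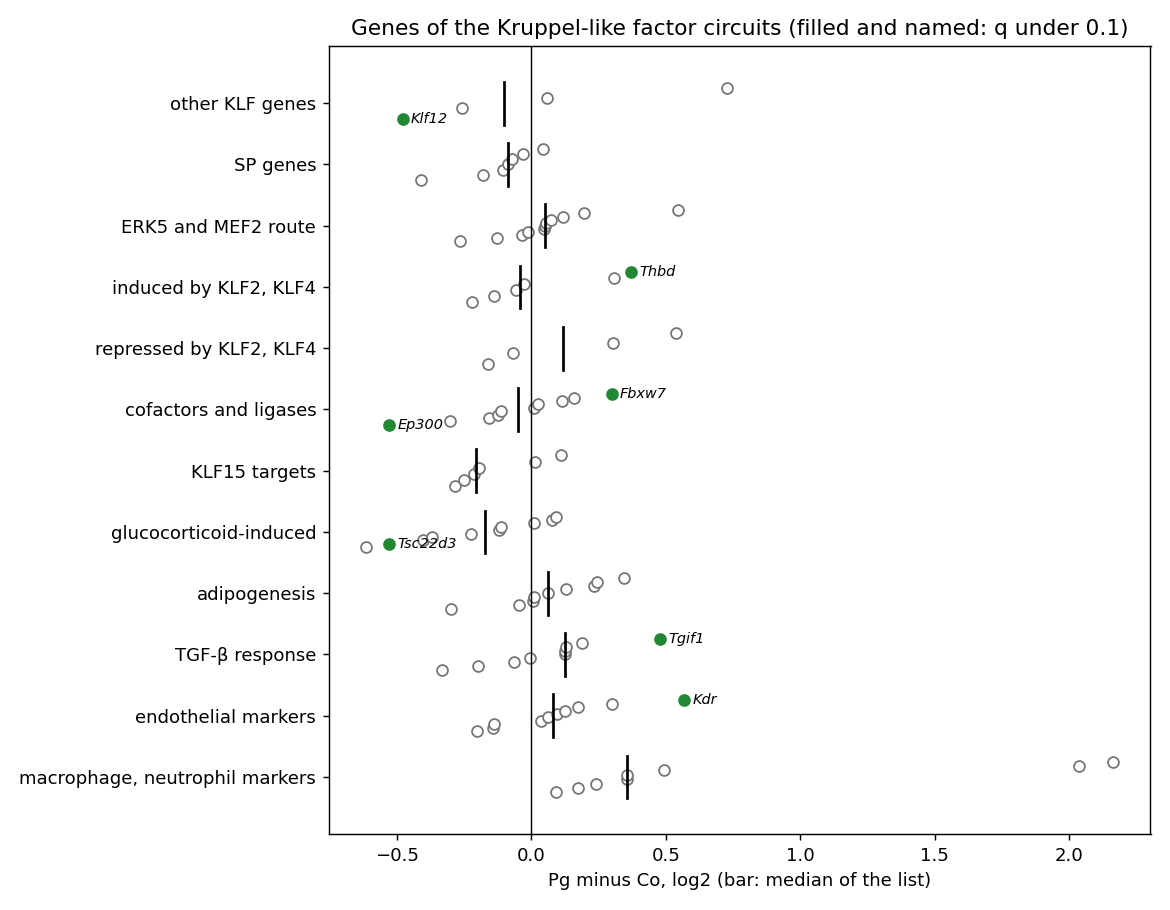
Difference of each tested gene (x axis, Pg minus Co, log2) in 10 lists of the family's circuits and 2 marker lists (rows); filled, named points have a q under 0.1 and bars mark the list's median. *Klf12*, *Ep300* and *Tsc22d3* lie to the left and *Thbd*, *Fbxw7*, *Tgif1* and *Kdr* to the right, and the 2 open points above 2 are *S100a8* and *S100a9*.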

How the data were processed

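The 8 arrays (4 Co, 4 Pg, each of a separate mouse) were Agilent one-color mouse arrays on 1 slide. The authors deposited the spot intensity written by Feature Extraction 11.0.1.1 for each array, background-subtracted and not normalized between arrays, and their quantile-normalized log2 values for 28067 entries. The file of log2 values also holds fold changes, p-values and q-values of their own comparison, which were not used. Here, outlier-marked spots (90 to 150 per array) were dropped, spots of a probe averaged, and arrays quantile-normalized, floored at 1 and log2-transformed (R 4.3.3, with the data.table package, version 1.17.8). A probe entered the two-sided test of limma 3.58.1 (lmFit, then eBayes) if at least 4 arrays had it well above background, which held for 33819, and q values are Benjamini-Hochberg's over these. DEGs needed q under 0.1 together with a fold change over 1.5. The fit was tested on simulated data. Precision is limited by there being 4 arrays per group.

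The members and gene lists were chosen with earlier results of these data known. Every member probe is named, and of each list the DEGs and the 2 tested genes with the smallest p, except 1 gene that is not reported here. Other genes named for the tissue check, *S100a9* and *Klf14* were chosen after their values were seen. Alternatives were other background steps, other scalings, other filters, outlier spots kept, the authors' values, the replicate number as a block and each array left out. Ratios within an array were added after seeing the data. Promoter sequences are RefSeq's, probe names and coordinates those of the array files.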

Additional observations from a re-analysis of the deposited data

Results flagged for a closer look

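Each probe was checked in each group of 4 arrays for a mouse that stands apart, by the gap to its nearest neighbour as a share of the group's range. Of 38 groups checked, 4 passed the limit, and chance alone passes about 1 in 20. *Klf15* in Pg mouse 3 had a share of 0.93, with a log2 signal of 13.05 against 12.73 to 12.76 in the other Pg mice, and it was above background on all 8 arrays. The other 3 were at or near background. *Klf5* probe 2 had a share of 0.904 in Pg mouse 4 (5.79 against 2.68 to 2.98, the 1 array above background) and of 0.903 in Co mouse 4 (3.59 against 2.55 to 2.65). *Klf10* probe 2 had a share of 0.98 in Pg mouse 4, with 3.52 against 2.06 to 2.09, above background on no array.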

How the results depend on the processing

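Of 286 differences of member probes recomputed under the alternatives, 284 stayed within the spread between replicates and none of a called probe changed sign. The 2 that moved, in the authors' table, were *Klf3* probe 1 (0.20) and *Klf7* probe 3 (0.09). *Klf2* and *Klf4* remained DEGs with normexp, the median signal, 75th percentile scaling, either filter, outlier spots kept and the authors' values. Without normalization between arrays 0 member probes were DEGs. With the replicate number as a block 0 were, and 0 of all probes. The deviations of same-numbered mice correlated by −0.07 to 0.18, and those of mice with different numbers by up to 0.13. So few and weak correlations cannot decide whether the numbers pair the mice. With arrays left out the member count ran from 0 (without Co mouse 3) to 2, and it was 1 (*Klf4*) without Co mouse 2 or Pg mouse 1. The count over all probes, 546, was 94 with normexp, 108 with the median signal, 283 with 75th percentile scaling, 27 without normalization, 318 with the filter on all 8 arrays and 106 with the authors' values. With arrays left out it ran from 2 (without Co mouse 3) to 692 (without Pg mouse 3). Over these left-out arrays the share of all probes with a q under 0.1 ran from 0.00607% (without Co mouse 3, with 0 member probes) to 7.16% (without Pg mouse 3, with 6). Among the other alternatives it ran from 0% with the replicate block to 10.3% with the filter on all 8 arrays. The cause was not tested. The split of the 546 into 106 higher and 440 lower became 66 and 28 with normexp, 75 and 33 with the median signal, 20 and 7 without normalization, 107 and 211 with the stricter filter and 60 and 46 with the authors' values. The count of other KLF and SP genes was 1 without a filter (*Klf14*, lower, a dim probe) and 0 to 0 with arrays left out. That of partner and target genes was 1 with the median signal (*Fkbp5*, lower) and 0 to 1 with arrays left out, the 1 being *Tsc22d3* without Pg mouse 3.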
